A study of Mus musculus with 44 samples.

Results

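This account compares wild-type (WT) bone marrow-derived macrophages (BMDMs) that received poly I:C with WT BMDMs that received IFNβ, library against library, over all genes. Its 4 libraries (2 after poly I:C and 2 after IFNβ, each taken at 6 h) are part of a series of 44 RNA-seq libraries, and they were chosen by their labels alone. BMDMs are macrophages grown in culture from precursors flushed out of mouse bone marrow. The WT cells carried floxed Ncor1 alleles (NCoR flox/flox) and no LysMCre. The NCoR knockout (NKO) cells carried the same floxed alleles with LysMCre, in which Cre is driven from the Lyz2 locus and acts in myeloid cells. Beside the 4 libraries, 2 WT libraries that received vehicle for 6 h gave the resting level, and 4 NKO libraries (2 after poly I:C and 2 after IFNβ, 6 h) gave the same contrast in cells that share no library with it, with 2 NKO vehicle libraries as their resting level. The labels name the strain as C57Bl6 and give no age that can be read from them. Each agent was given at 1 dose and 1 time, and nothing in the labels says whether the 2 replicates came from separate mice. The p-values therefore measure only spread between libraries, estimated over all 24 libraries (12 groups) of the count table.

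Poly I:C is a synthetic double-stranded RNA that stands in for a product of viral replication. It is read by TLR3 in endosomes, whose adaptor TRIF leads both to the kinases that activate IRF3, and so to transcription of the IFNβ gene, and to NFκB, and it can also be read by RNA sensors of the cytosol. IFNβ added from outside engages the receptor IFNAR and, through the kinases JAK1 and TYK2, acts on genes that carry the interferon-stimulated response element (ISRE). A macrophage that meets poly I:C can thus receive both signals, and the direct comparison asks which genes go beyond what IFNβ alone gave at this dose and time.

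The 10 libraries of the 2 contrasts and of WT vehicle held 10910854 to 13844604 counts in genes each, so that the limit of 3 counts lay at 0.194 to 0.361 CPM (counts scaled to a common library size by TMM). Of 24940 genes listed, 13407 had enough counts to be tested. The 2 replicates of a group correlated across genes with r of 0.994 or more on log2 CPM, and they differed by more than sampling noise in every group (chi-square per degree of freedom 1.62 to 5.95). The widest spread was in vehicle, where Ccl5, for example, was at 2.75 and 20.3 CPM in replicates 1 and 2. Cxcl10 (1.38 and 5.20 CPM) and Acod1 (2.82 and 11.1) were also higher in vehicle replicate 2. How many genes lay higher in either replicate was not counted. A gene not called between IFNβ and vehicle may thus still differ by less than this spread. Ncor1 was at 179 and 169.7 CPM in the WT IFNβ libraries, 174 and 171 in WT poly I:C, 55 and 55.8 in NKO IFNβ and 53.9 and 61.1 in NKO poly I:C, which matched the labels. Summed over 8 macrophage markers, the level was 15583 to 17546 CPM across the 6 WT libraries. Of the T cell markers, Cd3d, Cd3e, Cd3g and Cd8a had at most 1 count in any library. In contrast, Cd28 had 840 to 1081 counts and Cd4 111 to 129 in the WT vehicle and IFNβ libraries. Summed in WT vehicle, T cell markers were at 66.4 to 82.1 CPM, B cell markers at 221.7 to 233.1 and fibroblast and stroma markers at 97.6 to 109.4.

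Poly I:C went far beyond IFNβ in number of genes and in size. Against IFNβ, 2743 of 13407 genes were higher after poly I:C (20.5%) and 2881 were lower (21.5%), in all 5624 (41.9%), by edgeR's quasi-likelihood test. A call needed a Benjamini-Hochberg adjusted p under 0.05 together with a change of more than 1.5-fold. A difference above 4-fold was reached by 919 higher and 628 lower genes, and one above 16-fold by 230 higher and 84 lower genes. Against vehicle, poly I:C called 2974 genes higher (22.2%) and 3357 lower (25%), in all 6331 (47.2%), whereas IFNβ called 549 higher (4.09%) and 318 lower (2.37%), in all 867 (6.47%). The genes higher after poly I:C than after IFNβ had a median log2 difference from vehicle of 1.63 after poly I:C and 0.11 after IFNβ, and the lower genes had -1.32 and -0.07. These comparisons share libraries, so the values are given side by side only.

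The split between higher and lower rests on the scaling. The genes over 4-fold higher took 23.7% to 24.2% of all gene counts in the poly I:C libraries, 3.64% to 3.82% in the IFNβ libraries and 2.34% to 2.73% in vehicle. TMM sets the bulk of genes to no change, with a median log2 fold change of -0.05 over all genes. With the total of gene counts as the scale, that median was -0.59, a shift of -0.54, and 1699 genes were called higher and 6089 lower, which made the higher genes 21.8% of the calls against 48.8% under TMM. Changes below are therefore relative to the bulk of genes, and a group whose calls turn with the scale is named as such. Bulk libraries do not tell fewer cells of a kind from less RNA per cell.

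**Figure D1:**
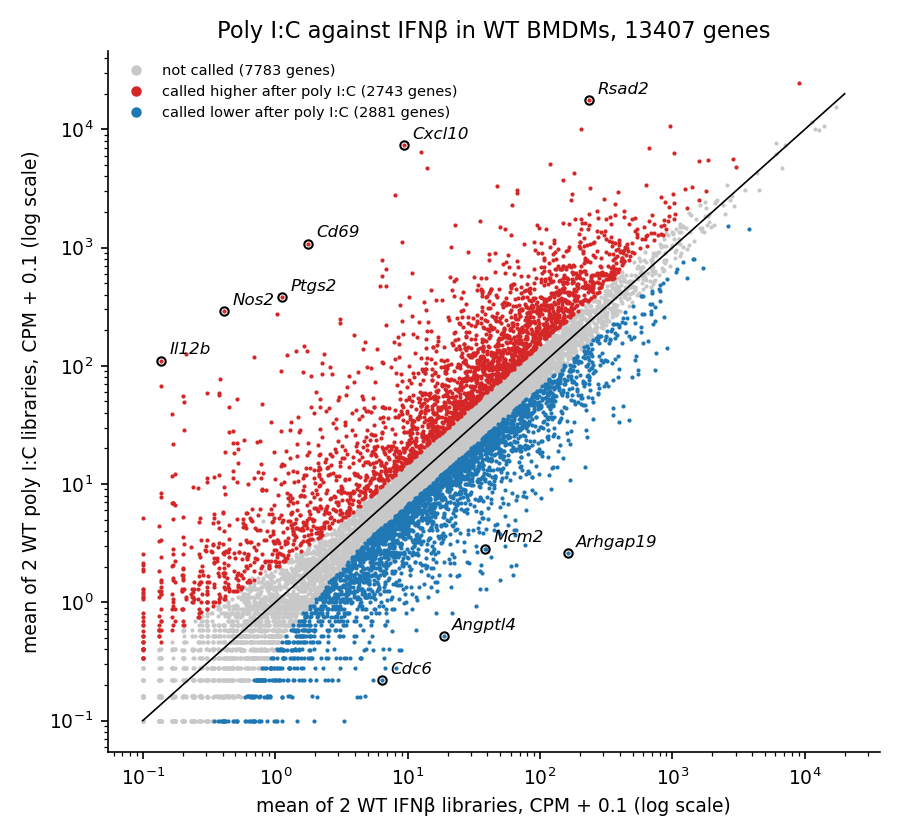
Mean level of each of 13407 genes in the 2 WT IFNβ libraries (horizontal axis) and the 2 WT poly I:C libraries (vertical axis), in CPM plus 0.1 on log scales, with the line of equal levels. Red points are the 2743 genes called higher after poly I:C, blue the 2881 called lower and grey the rest, and the cloud widens above the line at low IFNβ levels, where Il12b, Nos2, Ptgs2, Cd69 and Cxcl10 lie.

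The antiviral interferon-stimulated genes were raised by IFNβ and raised further by poly I:C. All 30 tested members were higher after poly I:C than after IFNβ (30 of 30, against 20.5% of all genes), with a median log2 fold change of 2.36 against -0.05 over all genes. Each agent also called 30 of them higher against vehicle, where poly I:C called 22.2% of all genes higher and IFNβ 4.09%. The medians against vehicle were 4.55 for poly I:C and 2.28 for IFNβ. With the total of gene counts as scale, 26 of the 30 were called higher and none lower.

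Rsad2, which encodes viperin, an enzyme that makes a chain-terminating nucleotide, stood at 29 and 50.6 CPM in vehicle, 209 and 262 after IFNβ and 17405 and 17849 after poly I:C. The 3 groups did not overlap, and the step from IFNβ to poly I:C (log2 fold change 6.23 ± 0.19 SE, adjusted p = 1.52e-12) was wider than that from vehicle to IFNβ (log2 2.56). Its neighbour Cmpk2, a mitochondrial nucleotide kinase, rose from 179.7 and 229.9 to 9869.8 and 10091 CPM (log2 5.61). On chromosome 12 of mm10, Rsad2 lies at 26442743 to 26456452 (minus strand) and Cmpk2 at 26469215 to 26479837 (plus strand).

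Isg15, a ubiquitin-like modifier, was at 3.10 and 11.7 CPM in vehicle, 128 and 132 after IFNβ and 935 and 903 after poly I:C (log2 2.82 ± 0.18 SE, adjusted p = 4.77e-09). Ifit1, which binds RNA without a mature cap, was at 13.2 and 33.7 CPM in vehicle, 134 and 165 with IFNβ and 3733 and 3781 with poly I:C. Both genes kept the order vehicle, IFNβ, poly I:C in all 6 libraries. The cytosolic RNA sensor Ifih1 (MDA5) rose from 165 and 194 to 4158 and 4358 CPM, and Ddx58 (RIG-I) from 181 and 211 to 1271 and 1339.7.

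The step beyond IFNβ was not of 1 size across the list. The widest were those of Rsad2 (6.23 on the log2 scale), Cmpk2 (5.61) and Oasl1 (5.23), and the narrowest those of Ifitm3 (0.72), Bst2 (0.94) and Oas3 (0.99), and these last 3 were not called with the total as scale. Ifitm3 blocks entry of viruses through endosomes, Bst2 tethers budding virus and Oas3 makes 2′-5′ oligoadenylates. Oas3 was already at 909 and 961 CPM after IFNβ against 95.5 and 183 in vehicle, and reached 1814 and 1895 after poly I:C. Oas1a has near-identical neighbours, so its reads may be shared and it is not valued here.

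The interferon-inducible GTPases, which attack the vacuoles of intracellular pathogens, were higher after poly I:C in 15 of 15 cases, under both scalings. Their median was 3.68, and 20.5% of all genes were higher. Against vehicle, 14 of 15 were called higher after IFNβ (median 2.81) and 15 of 15 after poly I:C (7.07). The shares of all genes higher than vehicle were 4.09% and 22.2%. Gbp4 was at 0.138 and 1.64 CPM in vehicle, 6.35 and 6.24 after IFNβ and 542 and 611 after poly I:C (log2 6.51 ± 0.18 SE), so that the IFNβ and poly I:C libraries lay far apart. Gbp2 rose from 654 and 687 to 6842 and 6957 CPM, and Iigp1 from 30.2 and 40.5 to 1624 and 1737. Gbp5, Gbp7, Gbp3 and Gbp2 form 1 block of chromosome 3 (142496934 to 142638008, mm10) and Gbp8, Gbp9, Gbp4 and Gbp6 another on chromosome 5 (105014153 to 105293699), and members of both blocks rose. Paralogs of this family share sequence, so the split of reads between them is uncertain.

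Ifnb1 itself was detected at a low level after poly I:C. It had 0 counts in both vehicle libraries, 0 and 1 after IFNβ and 65 and 74 after poly I:C, which gives 7.74 and 8.90 CPM and an at least 40.1-fold difference from IFNβ against the limit of 3 counts per library. The other 19 interferon genes listed did not pass the filter on low counts. The IFNα genes are close copies of one another, so that their reads may be shared.

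Most genes in the list of interferon signalling and its feedback rose (13 of 17 higher and 2 lower, median 1.49), against 20.5% higher and 21.5% lower of all genes. The 13 included the IL-10 receptor chain Il10ra (log2 1.77), and the 2 lower were Il10rb (-0.82) and Ifnar1 (-0.68). With the total as scale 11 were higher and 3 lower. The inhibitors stood out. Socs1, which blocks JAK kinases, was at 1.65 and 2.46 CPM in vehicle, 0.842 and 1.84 after IFNβ and 134 and 131 after poly I:C (log2 6.65 ± 0.15 SE, adjusted p = 5.82e-33). Socs3 went from 2.46 and 1.84 to 89.2 and 82.1 CPM. For both, the IFNβ libraries overlapped vehicle and the poly I:C libraries lay far above.

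Among the transcription factors, Irf1 was at 80.8 and 109.9 CPM in vehicle, 101 and 97 after IFNβ and 1504 and 1428 after poly I:C, a difference of log2 3.89 between the agents. Irf7, which drives the IFNα genes, was raised by both agents, at 40.9 and 97.6 CPM in vehicle, 992 and 1029 with IFNβ and 2835 and 2853 with poly I:C. The step from vehicle to IFNβ was the wider one for this gene (log2 3.87, against 1.49 from IFNβ to poly I:C). The receptor subunit Ifnar1 fell by 0.68 on the log2 scale (189 and 183 to 114 and 118 CPM).

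Of 20 genes of the TLR3 and RNA-sensing pathway, 10 were higher, 1 lower and 9 not called (median 0.59). Over all genes, 20.5% were higher and 21.5% lower. With the total as scale 6 of the 20 were higher and 6 lower, so that the direction of the list rests on the scaling. Tlr3 was at 20.6 and 27.2 CPM in vehicle, 35.7 and 37.5 after IFNβ and 426 and 438 after poly I:C (log2 3.56 ± 0.076 SE, adjusted p = 9.91e-36). Its 6 libraries did not overlap between groups. Tank, a scaffold for the kinases TBK1 and IKKε, went from 46 and 48 to 378 and 380.4 CPM, and Ikbke, which encodes IKKε, from 153 and 147 to 575 and 607. Mavs, the adaptor of the cytosolic RNA sensors, fell from 61.2 and 58.9 to 30.4 and 31.9 CPM (log2 -0.95).

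**Figure D2:**
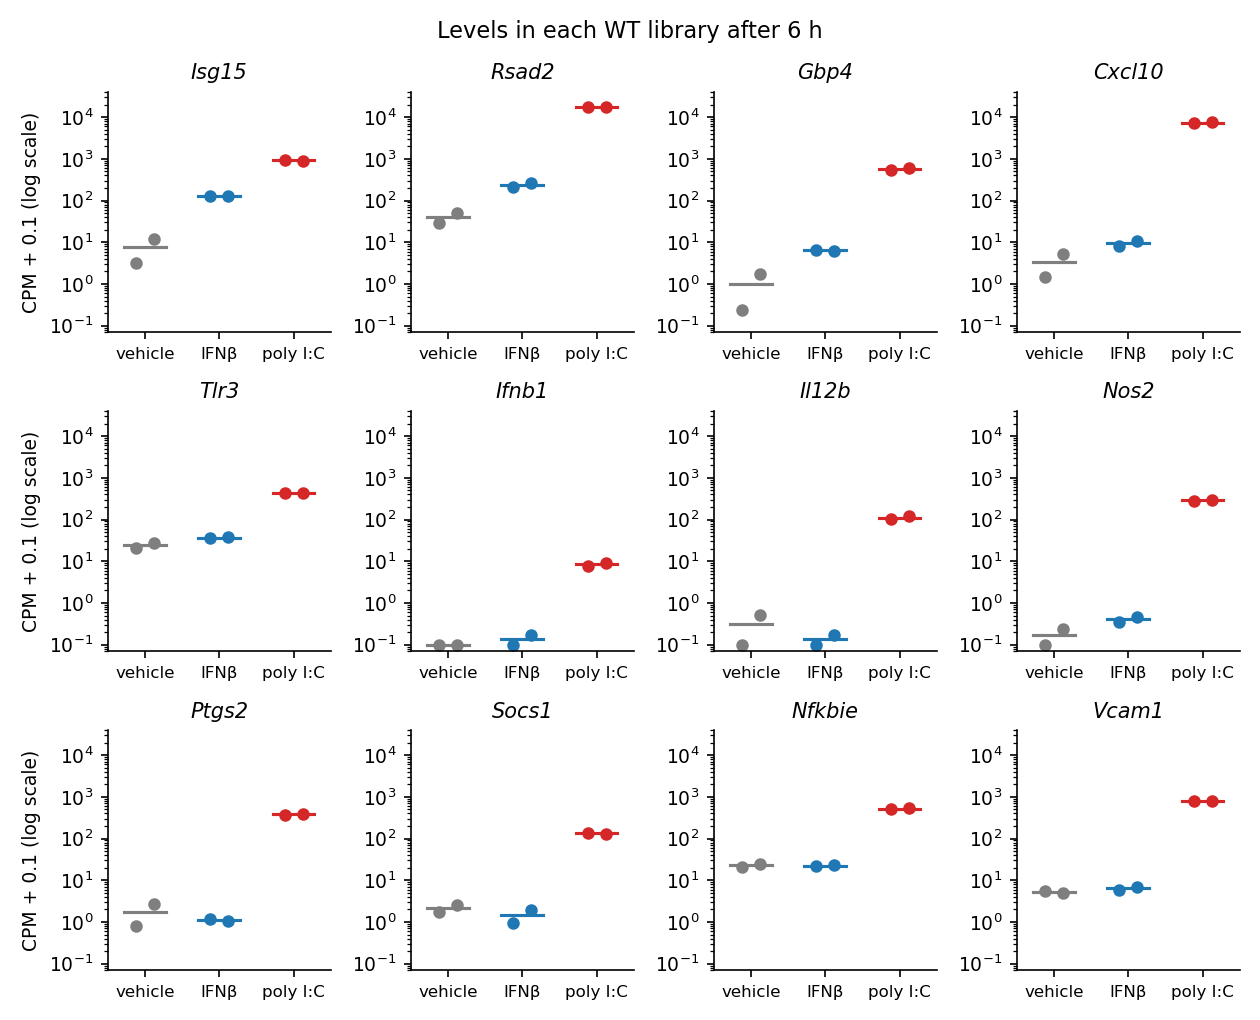
Level of 12 genes in each WT library (points, 2 per group) with the group mean (bar), as CPM plus 0.1 on a log scale, after vehicle, IFNβ or poly I:C. Isg15, Rsad2 and Gbp4 step up from vehicle to IFNβ and again to poly I:C, whereas Nos2, Ptgs2, Socs1, Nfkbie and Vcam1 stand near the vehicle level after IFNβ and are high only in the 2 poly I:C libraries.

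The NFκB subunits and inhibitors rose with poly I:C. Against IFNβ, 19 of 21 were higher after poly I:C and 1 was lower (median 2.01), against 20.5% and 21.5% of all genes. With the total as scale these were 16 and 2. Against vehicle, poly I:C called 18 higher and 1 lower (median 1.96), against 22.2% and 25% of all genes. After IFNβ, 0 of 21 were called against vehicle (median -0.01), which in so short a list is near the 6.47% of all genes. Of the 21, 6 had an unadjusted p under 0.05 by edgeR, as did 4660 of all 13407 genes, and DESeq2 called 0. Nfkbie, an inhibitor that holds NFκB in the cytosol, was at 21 and 23.9 CPM in vehicle, 21.4 and 23.4 after IFNβ and 516 and 530.3 after poly I:C (log2 4.55 ± 0.069 SE, adjusted p = 7.12e-53). Nfkbia was at 46.8 and 59.7 CPM in vehicle, 53.5 and 50.7 with IFNβ and 716 and 742 with poly I:C. In both genes the IFNβ libraries lay within the range of the vehicle libraries. Tnfaip3 (A20), which ends NFκB signalling by editing ubiquitin, rose from 57.7 and 53 to 716 and 782 CPM and Traf1 from 14.1 and 12.4 to 334 and 361. Otulin, which removes linear ubiquitin chains, was the member that fell (68.5 and 62.9 to 19.9 and 19.5 CPM, log2 -1.74).

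In the list of inflammatory cytokines 20 of 23 tested members were higher, against 20.5% of all genes, and none lower (19 and none with the total as scale). Among the 20 were the anti-inflammatory Il10 (log2 2.54), the IL-1 receptor antagonist Il1rn (3.77) and the endothelin gene Edn1 (3.42). The median of the list was 3.42. It was 3.25 with genes at the limit of 3 counts set to their bound and 2 genes with no more than 3 counts in any of the 4 libraries left out. Il12b, the p40 subunit of IL-12 and IL-23, had 0 and 1 counts after IFNβ and 847 and 999 after poly I:C (101 and 120.1 CPM), an at least 533-fold difference and the largest fitted change among genes averaging 5 CPM or more (adjusted p = 1.50e-30). Il27 went from 0.907 and 0.955 to 265 and 279 CPM and Tnf from 28.3 and 28.2 to 918 and 929.8. None of these genes overlapped between the agents.

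Il15, which sustains natural killer and memory T cells, rose from 21.6 and 24.2 to 537 and 557 CPM, and Tnfsf10 (TRAIL), a ligand that triggers cell death, from 6.48 and 7.12 to 644 and 682 (log2 6.61 ± 0.14 SE). Tnfsf4 (OX40 ligand), a costimulator of T cells, had 0 and 1 counts after IFNβ and stood at 68.6 and 67.3 CPM after poly I:C, at least 328-fold higher. Other classical cytokines stayed scarce after poly I:C. Il6 reached 2.14 and 1.80 CPM and Il1b 8.21 and 9.26 CPM, against 1.55 and 1.47 for Il1b after IFNβ. Il12a had 0 counts after IFNβ and 6 and 4 after poly I:C, at least 2.88-fold higher.

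Of the CC chemokines 11 of 12 were higher (median 4.18, or 4.16 with the 1 gene at the limit left out), against 20.5% of all genes. Of the CXC chemokines 5 of 9 were higher (median 2.77, or 3.07 with genes at the limit set to their bound). The CXC median was 1.70 without poly I:C replicate 1, and 5.74 over the members averaging at least 5 CPM after either agent. Ccl17, counted among the 11, had at most 3 counts in any of the 4 libraries. Cxcl10, which draws T cells through CXCR3, was at 1.38 and 5.20 CPM in vehicle, 8.23 and 10.4 after IFNβ and 7298 and 7467 after poly I:C (log2 9.64 ± 0.23 SE, adjusted p = 5.27e-14). Cxcl9 was at 7.97 and 7.78 after IFNβ and 2585 and 2950.1 after poly I:C. Both genes were called higher after IFNβ than after vehicle, and the poly I:C libraries lay far above all 4 others. Cxcl11, counted here on a transcript that RefSeq lists as noncoding, went from 0 and 3 counts to 119 and 135 CPM, at least 613-fold higher. Cxcl9, Cxcl10 and Cxcl11 are neighbours on chromosome 5 (92321331 to 92363296, mm10, minus strand).

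Ccl5, which attracts T cells and monocytes, was at 2.75 and 20.3 CPM in vehicle, 15.2 and 12.5 after IFNβ and 4754 and 4756 after poly I:C. The IFNβ libraries lay between the 2 vehicle libraries. The monocyte attractants Ccl2 (5.89 and 4.48 to 96.7 and 95 CPM), Ccl7 (3.17 and 2.57 to 53.1 and 50.4) and Ccl12 (0.518 and 0.661 to 119 and 117) rose together. The neutrophil attractants did not follow as a group: Cxcl2 rose from 4.60 and 5.21 to 43.9 and 38.6 CPM, whereas Cxcl1 was at 0.907 and 0.808 CPM with IFNβ and 1.67 and 1.44 with poly I:C and was not called.

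The promoters of 8 of these genes are shown because their letters hold the ISRE core or the κB consensus, the motifs read by the 2 arms described above. Each stretch is RefSeq sequence (GRCm38.p6, the same coordinates as mm10) upstream of the transcription start, 5′ to 3′ along the gene, from 15 bases before the first match to 15 bases after the last where the start allows, with matches in capitals. The ISRE core was GAAA, any 2 bases (NN) and GAAA, on either strand, and the κB consensus was searched by its 10 letters on either strand.
Cxcl10 (chr5:92348968-92349117, minus strand): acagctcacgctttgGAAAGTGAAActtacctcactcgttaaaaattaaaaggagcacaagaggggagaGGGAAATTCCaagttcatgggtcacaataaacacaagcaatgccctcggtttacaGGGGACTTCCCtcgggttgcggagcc
Isg15 (chr4:156200860-156200911, minus strand): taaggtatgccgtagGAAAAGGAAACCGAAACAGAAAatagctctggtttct
Ifit1 (chr19:34640770-34640828, plus strand): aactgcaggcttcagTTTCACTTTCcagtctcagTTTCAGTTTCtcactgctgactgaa
Rsad2 (chr12:26456548-26456587, minus strand): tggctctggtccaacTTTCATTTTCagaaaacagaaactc
Socs1 (chr16:10785589-10785634, minus strand): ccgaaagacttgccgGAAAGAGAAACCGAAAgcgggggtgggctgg
Ifnb1 (chr4:88522886-88522925, minus strand): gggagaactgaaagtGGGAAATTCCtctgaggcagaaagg
Il6 (chr5:30013055-30013094, plus strand): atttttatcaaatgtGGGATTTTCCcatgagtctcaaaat
Nfkbia (chr12:55492652-55492691, minus strand): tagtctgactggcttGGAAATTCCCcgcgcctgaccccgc

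In the Cxcl10 stretch the first capitals are an ISRE core, which starts 213 bases before the transcription start, and the others are 3 κB matches, of which 2 overlap. Isg15 holds 3 overlapping ISRE cores, Ifit1 holds 2 apart and Socs1 holds 2 overlapping, and Rsad2 holds 1. Ifnb1, Il6 and Nfkbia each hold 1 κB match and no ISRE core. Of 32851 RefSeq promoters, 2.98% hold an ISRE core and 7.25% a κB match in the 250 bases before the start. The same window of Cxcl9, Il12b, Ptgs2 and Tnf holds neither set of letters, which says only that these letters are not in this window. Shares of promoters among the called genes are not given, because only 70.4% of the genes tested matched a RefSeq start, below the 80% set for such a check.

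Enzymes of nitric oxide, itaconate and tetrahydrobiopterin synthesis rose with poly I:C over IFNβ. In the list of nitric oxide, arginine, itaconate and tryptophan genes 8 of 11 were higher (20.5% of all genes) and none lower. The median was 3.24, or 3.41 with genes at the limit of 3 counts left out or set to their bound. Nos2, the inducible nitric oxide synthase, was at 0 and 0.137 CPM in vehicle, 0.259 and 0.367 after IFNβ and 283 and 296 after poly I:C (log2 9.82 ± 0.19 SE, adjusted p = 6.46e-23). Acod1, which makes itaconate, was at 2.82 and 11.1 CPM in vehicle, 11.7 and 13.1 with IFNβ and 6421 and 6526 with poly I:C. Neither gene was called after IFNβ against vehicle, and the poly I:C libraries lay far above the 4 others. For Acod1, vehicle replicate 2 lay near the IFNβ libraries and replicate 1 below them. The missing call therefore does not show that IFNβ left Acod1 unchanged. The arginine transporter Slc7a2 and Gch1, the first enzyme of tetrahydrobiopterin synthesis, rose from 15 and 17.3 to 345 and 373 CPM and from 23.5 and 24.9 to 238 and 220.2. Arg1 had at most 1 count in each of the 4 libraries, and Ido1 was below the filter.

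The list named for prostaglandin synthesis had 15 tested genes. Of these, 3 were higher and 4 lower, shares close to the 20.5% higher and 21.5% lower of all genes. The median was -0.53, or -0.45 without the 1 gene at the limit. With the total as scale 3 were higher and 8 lower. The list goes beyond synthesis, to the receptors Ptger2 and Ptger4, the degrading enzyme Hpgd and the leukotriene genes Alox5, Alox5ap, Lta4h and Ltc4s. Ptger2 (log2 -3.13) and Alox5ap (-0.93) were among the 4 lower. Ptgs2 (COX-2) was at 0.688 and 2.60 CPM in vehicle, 1.10 and 0.955 after IFNβ and 362 and 396 after poly I:C (log2 8.51 ± 0.28 SE, adjusted p = 2.57e-12). The phospholipase Pla2g4a, which frees arachidonate, and the prostaglandin E synthase Ptges also rose, to 135 and 141 CPM from 5.44 and 6.02 and to 42 and 39.1 CPM from 5.05 and 5.36. Ptgs1 (COX-1) fell from 17.6 and 16.1 to 5.48 and 8.17 CPM, and Hpgds, which makes prostaglandin D2, from 270.5 and 277 to 56.5 and 59.1. Hpgds was at 277 and 262 CPM in vehicle, a range that overlapped IFNβ.

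Among costimulatory, checkpoint and adhesion genes 15 of 18 were higher and 1 was lower, against 20.5% and 21.5% of all genes. The median was 2.28, or 2.49 with genes at the limit left out or set to their bound. Cd40, which receives help from T cells, was at 4.75 and 7.80 CPM in vehicle, 21 and 24 after IFNβ and 1506 and 1613 after poly I:C (log2 6.12 ± 0.094 SE). Vcam1, an adhesion molecule, was at 5.43 and 4.86 CPM in vehicle, 5.63 and 6.98 with IFNβ and 774 and 784 with poly I:C, and the activation marker Cd69 at 0.963 and 1.16 in vehicle, 1.04 and 2.28 with IFNβ and 1031 and 1125 with poly I:C. Cd40 was called higher after IFNβ than after vehicle, and Vcam1 and Cd69 were not. The checkpoint ligand Cd274 (PD-L1) rose from 161 and 182 to 2452 and 2555 CPM and Icam1 from 70.5 and 63.4 to 3079.9 and 3073. Havcr2 (TIM-3) was the member that fell, from 18.3 and 19.3 to 3.81 and 5.17 CPM (log2 -2.07).

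The steps in antigen presentation were smaller. For MHC class I, 17 of 20 were higher and none lower (median 1.31), against 20.5% of all genes higher. With the total as scale 13 were higher and 1 lower. Against vehicle, IFNβ called 12 of them higher (4.09% of all genes) and poly I:C 17 (22.2%). Tap1, a peptide transporter, was at 69.2 and 92.5 CPM in vehicle, 200.4 and 208 after IFNβ and 1424 and 1453 after poly I:C, and its coactivator Nlrc5 at 34.3 and 63.8 in vehicle, 159 and 169.7 with IFNβ and 1013 and 1029 with poly I:C. B2m, the light chain, went from 2848 and 2867 to 5571 and 5616 CPM, a step that was not called with the total as scale. For MHC class II, 8 of 10 were higher under TMM (median 0.82) and 3 with the total as scale. After IFNβ, 5 of the 10 had an unadjusted p under 0.05 against vehicle by edgeR, as did 4660 of all 13407 genes. Against vehicle, IFNβ called none of the 10 by edgeR or DESeq2. In so short a list that is near the edgeR share of 6.47% of all genes. Ciita, the class II transactivator, was at 6.26 and 8.69 CPM in vehicle, 8.94 and 8.45 after IFNβ and 47.4 and 56.9 after poly I:C.

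In the list of complement and humoral pattern recognition genes 11 of 18 were higher (20.5% of all genes) and none lower, with a median of 1.41. With the total as scale 10 were higher and 4 lower. Among the 11 higher under TMM were Ptx3, Cp, Saa3 and Lcn2, which are acute-phase or pattern recognition proteins and not part of complement. C3, the central component, was at 32.4 and 105 CPM in vehicle, 122 and 117 after IFNβ and 5005 and 5231 after poly I:C, and Cfb of the alternative pathway at 0.894 and 7.53 in vehicle, 10.4 and 10.9 with IFNβ and 263 and 259.5 with poly I:C. For both, the poly I:C libraries lay far above the 4 others, and vehicle replicate 2 lay closer to the IFNβ libraries than to vehicle replicate 1. Cp (ceruloplasmin), which oxidises iron, was at 4.54 and 9.10 CPM in vehicle, 13.8 and 12.9 with IFNβ and 88.1 and 86.1 with poly I:C (log2 2.70 ± 0.14 SE).

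Genes of cell death and survival were higher in 16 of 23 cases and lower in 2 (median 1.87), against 20.5% and 21.5% of all genes. With the total as scale the counts were 14 and 2. The members stood on both sides of the process. The caspase 8 brake Cflar went from 89.3 and 90.6 to 1091 and 1152 CPM and the kinase Pim1 from 67.5 and 59 to 498 and 489. The death receptor Fas rose from 2.46 and 1.69 to 49.6 and 55.8 CPM, the inflammatory caspase Casp4 from 53.7 and 52.7 to 347 and 346, and Mlkl, which ruptures the membrane in necroptosis, from 48.3 and 51 to 251 and 255. Bcl2l11 (BIM), a trigger of apoptosis, fell from 230.1 and 235 to 113 and 113 CPM. The survival gene Bcl2a1a, with 2 and 0 counts after IFNβ and 40.8 and 36.5 CPM after poly I:C, has near-identical copies, so its own share of reads is uncertain.

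Of 38 macrophage surface receptors, 15 were higher, against 20.5% of all genes, and 7 lower, a share no larger than the 21.5% of all genes (median 0.31, or 0.29 without Trem1, which was called with at most 3 counts in each of the 4 libraries; 12 and 16 with the total as scale). Tlr2, the receptor of lipoproteins, rose from 63.6 and 61.2 to 496 and 483 CPM and the scavenger receptor Msr1 from 137 and 150.2 to 656 and 670.4. Tlr13, which reads bacterial ribosomal RNA, fell from 709 and 721 to 223 and 226 CPM (log2 -1.67 ± 0.056 SE), the mannose receptor Mrc1 from 185 and 167 to 90.7 and 92.2, and the haemoglobin receptor Cd163 from 5.12 and 4.92 to 0.833 and 1.32. In vehicle, Mrc1 was at 249 and 265 CPM and Cd163 at 9.56 and 8.69, above the libraries of both agents, and the poly I:C libraries were the lowest.

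Several DNA replication genes moved in opposite directions from vehicle with the 2 agents. In the list of cell division and DNA replication genes 26 of 32 were lower after poly I:C than after IFNβ and 3 were higher (median -1.59; 27 and 2 with the total as scale), against 21.5% of all genes lower. Against vehicle, IFNβ called 8 of the 32 higher and 2 lower, and poly I:C called 4 higher and 26 lower. Of all genes, IFNβ called 4.09% higher and 2.37% lower than vehicle, and poly I:C 22.2% and 25%. Mcm2, a subunit of the replicative helicase, was at 16.3 and 21.6 CPM in vehicle, 37 and 39.7 after IFNβ and 2.74 and 2.76 after poly I:C (log2 -3.79 ± 0.18 SE, adjusted p = 9.37e-27). Mcm7 was at 21.1 and 16.4 CPM in vehicle, 29.7 and 27.2 with IFNβ and 3.93 and 3.37 with poly I:C, and Mcm3 at 31.2 and 35.9 in vehicle, 58.6 and 51.7 with IFNβ and 13.2 and 9.50 with poly I:C. In each of these the IFNβ libraries were the highest and the poly I:C libraries the lowest, with no overlap.

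Cdc6, which loads the helicase at origins, was at 3.71 and 2.81 CPM in vehicle and 6.22 and 6.32 after IFNβ, and had 0 and 2 counts after poly I:C, at least 17.5-fold lower than after IFNβ. Dtl, part of a ubiquitin ligase of S phase, was at 5.64 and 4.72 CPM in vehicle, 13.8 and 10.4 with IFNβ and 1.19 and 1.32 with poly I:C, and Uhrf1, which carries DNA methylation through replication, at 13.2 and 15.1 in vehicle, 24.2 and 20.8 with IFNβ and 2.50 and 2.16 with poly I:C. Not every gene of the S phase followed. The clamp Pcna was at 143 and 139 CPM in vehicle, 222 and 216 after IFNβ and 222 and 216 after poly I:C, and was not called between the agents. The mitotic genes Bub1b and Top2a fell with poly I:C and were not called after IFNβ against vehicle: Bub1b was at 11.2 and 8.48 CPM in vehicle, 8.10 and 8.81 with IFNβ and 0.595 and 1.32 with poly I:C and Top2a at 46.8 and 37 in vehicle, 38.6 and 31.1 with IFNβ and 9.17 and 9.50 with poly I:C. Against the list, Mki67 rose from 40.4 and 35.4 to 93.9 and 92.4 CPM, Ccne1 (cyclin E1) from 6.48 and 6.02 to 42.6 and 46 and the kinetochore motor Cenpe from 10.6 and 9.91 to 18.6 and 19.8, of which Cenpe was not called with the total as scale.

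**Figure D3:**
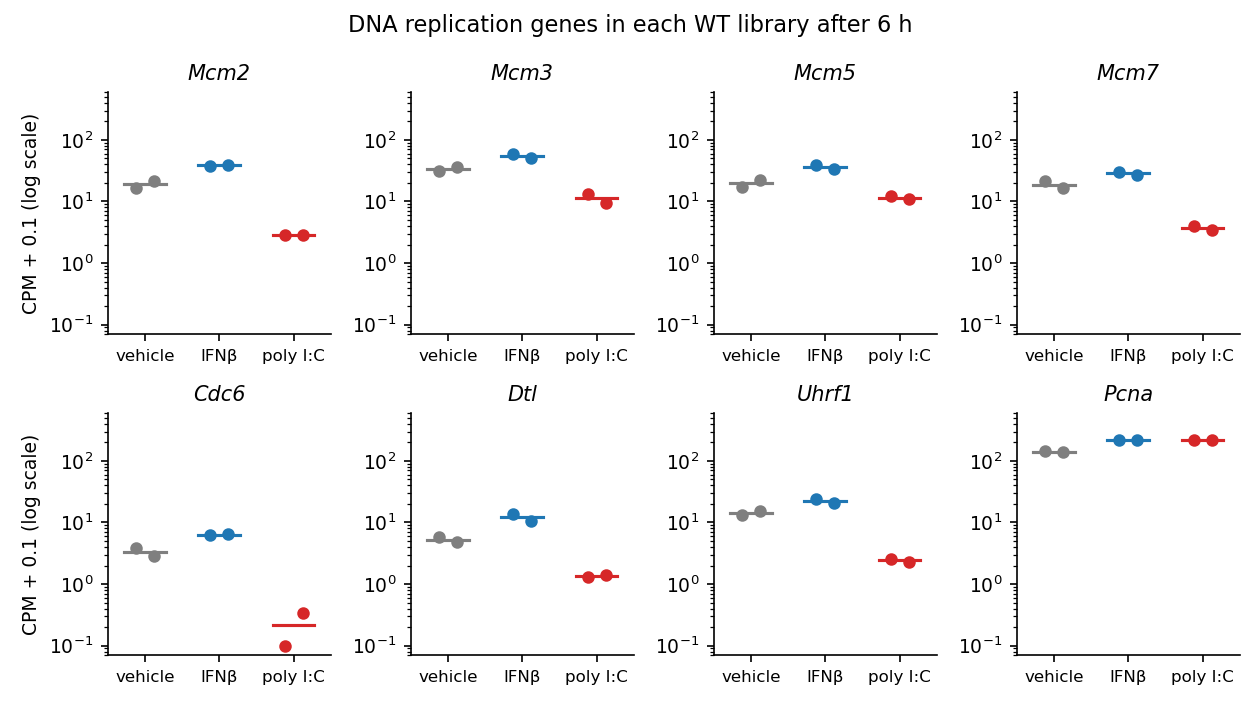
Level of 8 DNA replication genes in each WT library (points, 2 per group) with the group mean (bar), as CPM plus 0.1 on a log scale, after vehicle, IFNβ or poly I:C. In Mcm2, Mcm3, Mcm5, Mcm7, Cdc6, Dtl and Uhrf1 the IFNβ libraries are the highest and the poly I:C libraries the lowest, and in Pcna the libraries of the 2 agents lie at one level under TMM.

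Other genes that IFNβ raised over vehicle and that lay lowest after poly I:C were Ets1, a transcription factor (27.9 and 20.3 CPM in vehicle, 35.8 and 38.5 after IFNβ and 3.45 and 4.09 after poly I:C), Nanos1, an RNA-binding repressor (15.5 and 14.5 in vehicle, 30.4 and 35.5 with IFNβ and 2.98 and 2.76 with poly I:C), and the phosphoinositide phosphatase gene Inpp5j (4.47 and 6.43 in vehicle, 14.3 and 16.7 with IFNβ and 1.90 and 1.80 with poly I:C). Frmd6 fell from 72 and 75.4 to 7.02 and 8.77 CPM, Dnah11, a dynein chain, from 11.7 and 11.6 to 1.19 and 0.721, and Cdca7, a cell cycle gene, from 10.6 and 10.6 to 1.55 and 0.601. In NKO, 35 genes were called higher with IFNβ and lower with poly I:C against vehicle. Read in WT, all 35 were called lower after poly I:C than after IFNβ, with a median of -2.38. The choice already put poly I:C below IFNβ in NKO, so the 21.5% of all genes called lower in WT is a low yardstick. Of the 2289 genes called lower in NKO after poly I:C than after IFNβ, 2019 (88.2%) were called lower in WT. The 35 included Mcm2, Mcm3, Mcm5, Mcm7, Cdc6, Dtl, Uhrf1, Ets1, Nanos1, Frmd6 and Inpp5j.

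The largest fall among genes averaging 5 CPM or more was that of Arhgap19. The gene, which encodes a GTPase-activating protein, was at 136 and 142 CPM in vehicle, 161 and 163 after IFNβ and 2.74 and 2.28 after poly I:C (log2 -6.01 ± 0.12 SE, adjusted p = 6.11e-47). Angptl4, an inhibitor of lipoprotein lipase, was at 23.1 and 18.2 CPM in vehicle, 19.2 and 18.1 with IFNβ and 0.357 and 0.481 with poly I:C, and Rasgrp3, an activator of Ras and Rap, at 42 and 34.6 in vehicle, 40.7 and 37 with IFNβ and 1.19 and 1.20 with poly I:C. The poly I:C libraries were the lowest for each, and none of these genes was called after IFNβ against vehicle. Zfyve28 (103 and 97.7 CPM in vehicle, 67.6 and 64.7 with IFNβ and 1.07 and 2.88 with poly I:C) and Tcp11l2 (64.9 and 54.4 in vehicle, 35.8 and 29.7 with IFNβ and 0.952 and 0.721 with poly I:C) were lowered by IFNβ and further by poly I:C. The transporter Slco2b1 fell from 34.8 and 34.8 to 1.31 and 1.08 CPM, Engase, which trims glycans, from 59.5 and 61.7 to 1.67 and 2.16, and Fam214a from 52.9 and 47.1 to 1.79 and 1.08.

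The remaining genes named by size rose or fell as follows. Mir155hg, the host transcript of miR-155, had 1 and 2 counts after IFNβ and stood at 45.5 and 53.3 CPM after poly I:C, at least 238-fold higher. Apol7c had 2 and 1 counts and 53.3 and 56.9 CPM (at least 266-fold), and Oprd1, an opioid receptor gene, 0 counts and 4.64 and 5.53 CPM (at least 24.5-fold). Cst7 (cystatin F), an inhibitor of lysosomal proteases, rose from 1.36 and 0.881 to 127 and 119 CPM, and the serpins Serpina3f and Serpina3g, which are close paralogs, from 0.777 and 1.25 to 85.7 and 93.5 and from 3.11 and 2.86 to 229 and 234. In the other direction, Frat1, an inhibitor of the kinase GSK3, went from 7.90 and 8.15 CPM to 3 and 0 counts (at least 22.4-fold lower), Nat8l, which makes N-acetylaspartate, from 7.38 and 5.95 CPM to 0 and 3 counts (at least 18.6-fold), and Galnt9 from 8.55 and 9.11 CPM to 3 and 2 counts (at least 24.6-fold).

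Metabolic lists had smaller medians. Of all genes, 20.5% were higher and 21.5% lower, and with the total as scale 1699 and 6089 of 13407. The lower members of the glycolysis and efflux lists were near the 21.5%. Glycolysis and hypoxia genes had 9 higher and 5 lower of 24 (median -0.06), and 5 and 12 with the total as scale. Hif1a was at 81.7 and 91.6 CPM after IFNβ and 306 and 343 after poly I:C. The hexokinase Hk1 rose from 92.4 and 96.4 to 305 and 297, whereas the lowest member of the list was at log2 -1.94. The respiratory chain had 3 of 26 called, all higher (median 0.22; 1 higher and 5 lower with the total as scale). Cholesterol and fatty acid synthesis had 12 higher and 3 lower of 29 (median 0.45; 3 and 8 with the total as scale), and cholesterol efflux and oxysterol genes 2 higher and 3 lower of 14 (median -0.03; 2 and 7). In the last list Ch25h, which makes the antiviral sterol 25-hydroxycholesterol, was at 0.0688 and 0.547 CPM in vehicle, 0.259 and 0.294 after IFNβ and 56.9 and 59.7 after poly I:C (log2 7.67 ± 0.22 SE), whereas Soat1, which esterifies cholesterol, fell from 571 and 594 to 197 and 193 CPM. AP-1, EGR and MAPK feedback genes had 14 higher and 3 lower of 28 (median 0.62, or 1.13 over members averaging at least 5 CPM; 12 and 10 with the total as scale). Junb rose from 202 and 204 to 732 and 672 CPM and Egr2 fell from 43.7 and 41.3 to 17 and 16.2.

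**Figure D4:**
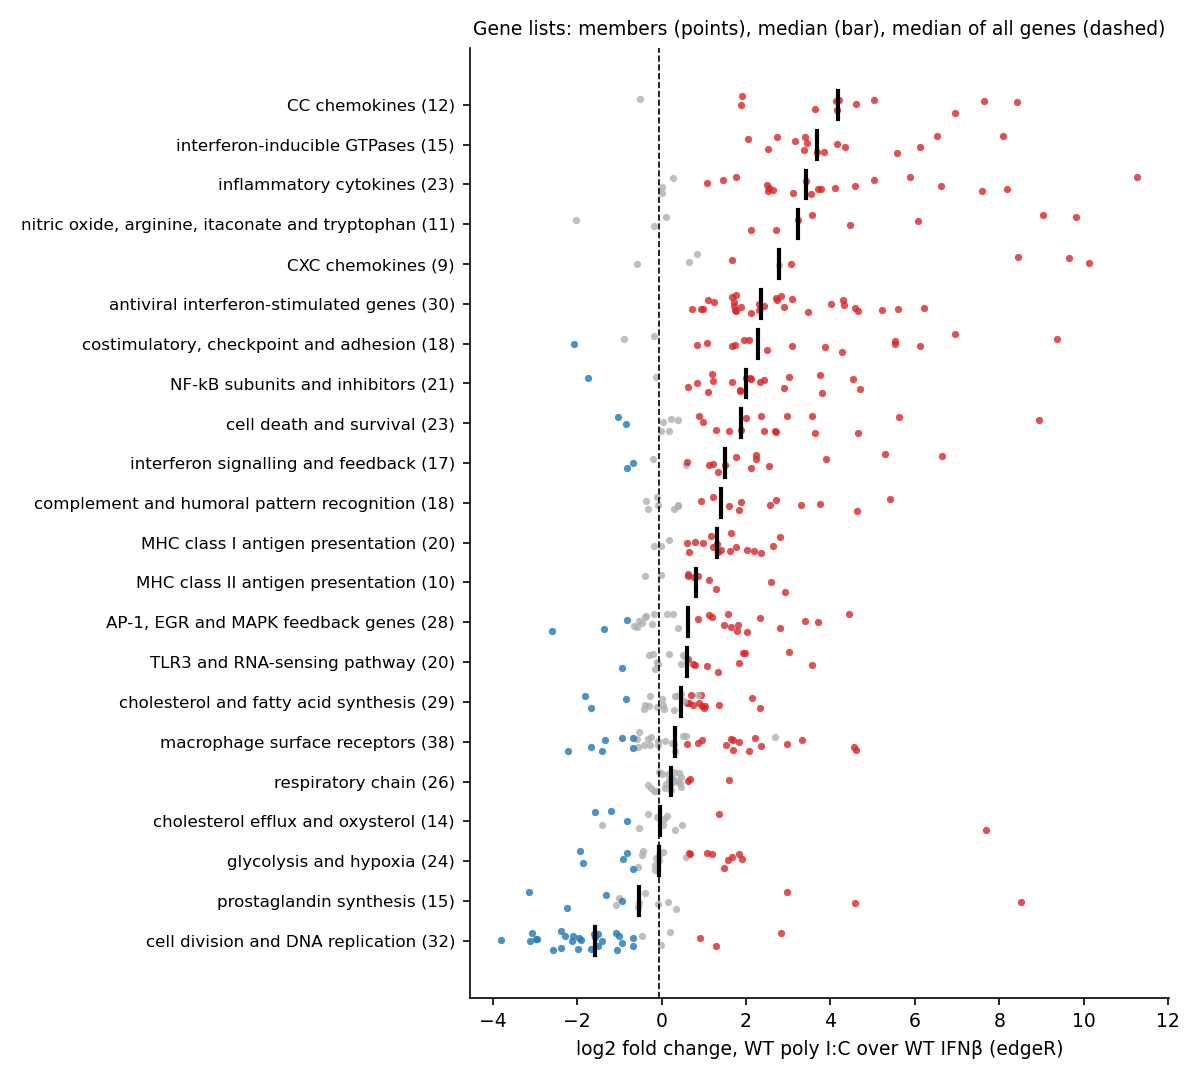
Log2 fold change of poly I:C over IFNβ in WT for each tested member of 22 gene lists (points), with the list's median (black bar), the number of members tested in parentheses and the median of all 13407 genes (dashed line, -0.05). Red and blue points were called higher and lower, grey points were not called, and medians run from -1.59 for cell division and DNA replication to 4.18 for CC chemokines.

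The same contrast in NKO libraries called 2473 genes higher (18.4%) and 2289 lower (17.1%), in all 4762 (35.5%), and the interaction of genotype with the contrast called 285 (2.13%). Of the 2743 genes called higher in WT, 2719 (99.1%) had the same direction in NKO, 2251 (82.1%) were called there too and 0 were called the opposite way. Of the 2881 called lower, 2842 (98.6%) had the same direction, 2019 (70.1%) were called and 1 was called the opposite way. The median log2 fold change in NKO was 1.24 for the first set and -0.91 for the second. The antiviral list had 29 of 30 members called higher in NKO, with a median of 2.05, and the NFκB list 18 of 21 higher and 1 lower, with 1.72.

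The NKO libraries also allowed responders to IFNβ to be picked in cells that the WT contrast did not use. IFNβ called 757 genes higher (5.65%) and 366 lower (2.73%) than vehicle in NKO. Read in WT, 553 of the 757 (73.1%) were higher after poly I:C than after IFNβ, 65 (8.59%) were lower and 139 (18.4%) were not called, with a median of 1.53. Over all genes this WT contrast had 20.5% higher and 21.5% lower, with a median of -0.05. Poly I:C called 2819 genes higher (21%) and 2966 lower (22.1%) than vehicle in NKO. Read in WT, 2349 of the 2819 (83.3%) were higher after poly I:C than after IFNβ and 3 lower, with a median of 1.35. Of the 2819, 2148 were not called with IFNβ in NKO, and read in WT 1778 of them (82.8%) were higher after poly I:C than after IFNβ and 0 lower, with a median of 1.25. These sets were picked as raised by poly I:C, which favours higher values in WT. The 652 called higher with both agents in NKO gave 553 higher (84.8%) and 3 lower in WT, with a median of 1.75.

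**Figure D5:**
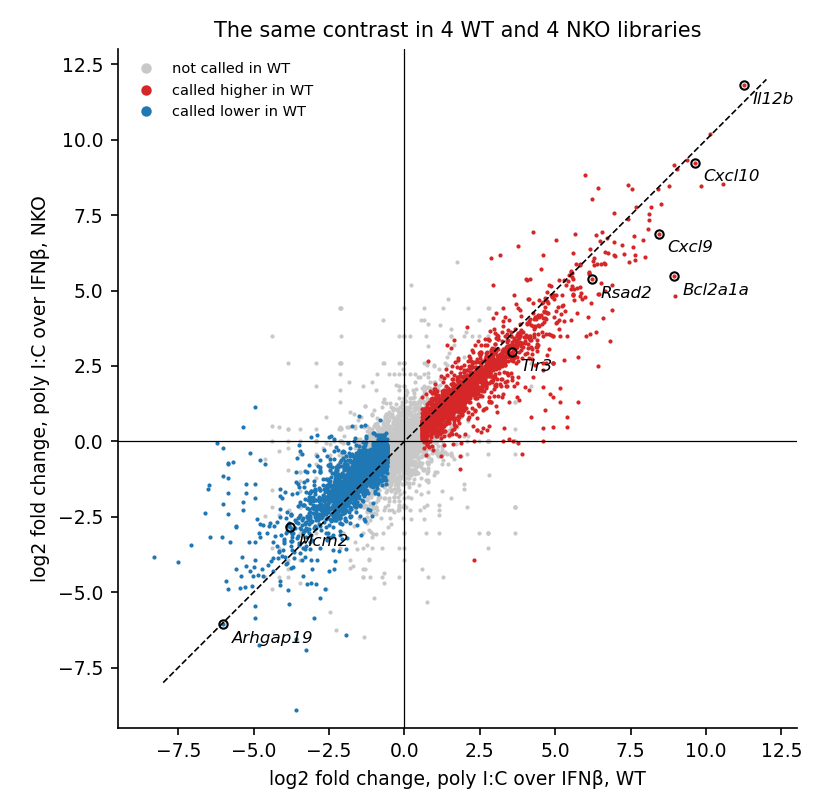
Log2 fold change of poly I:C over IFNβ in 4 WT libraries (horizontal axis) and in 4 NKO libraries (vertical axis) for 13407 genes, with the line of equal change (dashed); red and blue points were called higher and lower in WT. Of the WT calls, 99.1% of the higher and 98.6% of the lower genes lie on the same side of 0 in NKO, and Cxcl9, Bcl2a1a, Rsad2, Tlr3 and Mcm2 lie closer to 0 in NKO than in WT.

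Markers of other cell types moved with the contrast at low levels. Summed over 9 dendritic cell markers, the level was 4.41 to 6.22 CPM after IFNβ and 18.8 to 22.4 after poly I:C, where Clec9a rose from 1.68 and 2.06 to 12 and 14.3 CPM, with Flt3 and Siglech at or under 3 counts. Over 10 neutrophil markers the sums were 3.69 to 4.11 and 10.9 to 13.5 CPM, with Ly6g and Elane at 0 counts. Over 7 T cell markers they were 73.0 to 75.0 and 31.2 to 32.3 CPM, in which Cd28 fell from 66.3 and 63.5 to 3.45 and 3.73 CPM and the kinase Lck rose from 0.389 and 0.367 to 21.5 and 22.5, and over 7 B cell markers 229.9 to 232.5 and 104.5 to 105.6, mostly Blnk, with Pax5 at 0 counts. Fibroblast and stroma markers summed to 106.1 to 106.3 and 124.3 to 141 CPM, and NK cell, mast cell and erythroid markers to at most 2.07. The part of such cells in the results above was not tested.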

How the data were processed

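Single-end RNA-seq reads were aligned by the authors to mm10 with STAR and counted by strand over exons of RefSeq transcripts with HOMER, from libraries whose second strand was marked with dUTP, with 1 transcript kept for each gene and no adjustment, so reads of genes that overlap on the same strand cannot be told apart. Tool versions are not given in the sources used here. The deposited values are raw counts per gene, and their totals are the depth of each library. Nothing was rescaled before testing.

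All 24 libraries (12 groups) of the count table entered 1 fit in edgeR 4.0.16 (R 4.3.3) with TMM factors, edgeR's filter on low counts and robust quasi-likelihood F-tests, and p-values were adjusted by Benjamini-Hochberg over 13407 genes. Calls were made at adjusted p under 0.05 and over 1.5-fold change. CPM values are counts scaled by library size and TMM factor. Each SE is the absolute log2 fold change divided by the square root of the F statistic. It is not an error estimated directly, and it can be too small where 1 group has few counts, as for Nos2 (4 and 5 counts after IFNβ). Steps were tested on simulated data. The exact permutation test of 2 against 2 libraries cannot give a p below 0.333, so that per-gene tests rest on the spread shared across genes and groups. A fold against libraries with at most 3 counts each was given as a bound, with 3 counts per library as the limit, which covers counting error only.

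Named were the 15 higher and 15 lower calls with the largest fold change among genes averaging at least 5 CPM, the 10 in each direction among genes that IFNβ called higher than vehicle, members that carry each list or go against it, Tlr3, Ptgs2, Cp and Il12a, and Ncor1 and Lyz2 as checks; genes without a descriptive symbol were left out. The contrast and the lists, written from general knowledge, were chosen with earlier results of these data known. Clec9a, Cd28 and Lck were named after their values were seen, and the responders picked in NKO libraries were added after seeing the data. Alternatives were the total of gene counts or DESeq2 size factors in place of TMM, DESeq2 1.42.0, other filters, libraries and fold thresholds, a replicate block and leaving out each library. Promoters were matched to RefSeq (GRCm38.p6) by symbol and a start within 5 bases. Figures were drawn with matplotlib 3.10.9. The other count tables of the series were not used here.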

Additional observations from a re-analysis of the deposited data

Results flagged for a closer look

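The step from IFNβ to poly I:C was tested for a difference between NKO and WT by the interaction term of the same fit (edgeR's quasi-likelihood test, Benjamini-Hochberg). It called 285 of 13407 genes (2.13%), and the fold change was smaller in size in NKO for 255 of them. The share of all genes with a smaller fold change in NKO was not counted. The contrast called fewer genes in NKO (4762 against 5624), and genes called higher in WT had a median of 1.24 in NKO and 1.48 in WT. Among the 133 genes named with values, 17 were called. Many of the 133 were named for a large fold change in WT, and the interaction uses the same WT libraries, which favours smaller values in NKO. Values below are log2 differences, NKO minus WT.

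The step was smaller in NKO for Bcl2a1a (-3.45, adjusted p = 0.00353), Ccl12 (-1.60, adjusted p = 0.0229), Cxcl9 (-1.57, adjusted p = 0.0163) and Clec9a (-1.52, adjusted p = 0.00382). It was also smaller for the antiviral genes Rsad2 (-0.84, adjusted p = 0.0396) and Ifih1 (-0.67, adjusted p = 0.0249), the GTPase gene Gbp6 (-0.66, adjusted p = 0.000109) and Tlr3 (-0.60, adjusted p = 0.00013). Cd274 (-0.71, adjusted p = 5.24e-06), Slc7a2 (-0.66, adjusted p = 5.36e-05), Traf1 (-0.66, adjusted p = 0.000353) and Junb (-0.62, adjusted p = 7.52e-07) had the same sign. Each of these 12 genes was still higher after poly I:C than after IFNβ in NKO.

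The falls of Mcm2 (0.95, adjusted p = 0.0455) and Mcm3 (0.68, adjusted p = 0.00933) were smaller in NKO, and that of Ifnar1 was close to absent there (0.65, adjusted p = 1.11e-07; log2 fold change -0.03 in NKO and -0.68 in WT). The rise was larger in NKO for Tlr2 (0.76, adjusted p = 2.68e-07) and Cenpe (0.70, adjusted p = 0.0271). All 17 differences were found in 2 libraries a group, and the cause was not tested.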

How the results depend on the processing

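With the total of gene counts in place of TMM, 1699 genes were higher and 6089 lower after poly I:C than after IFNβ, and the medians of cholesterol and fatty acid synthesis (-0.09), macrophage surface receptors (-0.23) and the respiratory chain (-0.32) changed sign. DESeq2 called 2859 higher and 2591 lower, and a filter at 5 CPM left 2285 and 2295. Without a fold threshold, IFNβ against vehicle gave 3402 calls, the NKO contrast 7708 and the interaction 953. At a fold change above 2 these were 386, 3042 and 71, and 1789 genes were lower in the WT contrast. Without 1 library, the WT contrast gave 2666 to 2721 higher and 2645 to 2798 lower genes, poly I:C against vehicle 6008 to 6271 calls, IFNβ against vehicle 750 to 979, the NKO contrast 4452 to 4649 and the interaction 207 to 278, and 89.8% to 94.1% of the 5624 WT calls were kept in their direction. The lone library is then assumed to vary like the other groups.

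Of 133 genes over the alternatives, 1832 values kept direction and call, 13 kept direction and lost the call, and 12 changed sign, all in genes not called. Lyz2 was -0.48 with the total. Ncor1 (main value -0.01) was 0.0364 with DESeq2 size factors, 0.0366 with DESeq2, 0.00451 with only the libraries compared and -0.0474 to 0.0270 without 1 library. Pcna was 0.0442 with DESeq2 size factors, 0.0442 with DESeq2, 0.0124 with only the libraries compared, 0.00511 with the 16 libraries of 1 date stamp and -0.0230 to 0.0168 without 1 library. The replicate numbers are numbers only: over 28 pairs of groups the same-numbered libraries correlated at -0.045 to 0.059, none over 0.1, and the replicate block gave 2743 higher and 2870 lower genes.

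Depth limits the low genes: 143 genes were called higher with at most 3 counts in each IFNβ library, 199 lower with at most 3 in each poly I:C library, and 8 with both groups at that limit.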
